A study of Homo sapiens with 6 samples.

Results

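The 10 genes described here encode Polycomb repressors and the heterochromatin factor BEND3. They were chosen by symbol, with earlier results of these data known, as were the gene lists set beside them. Shares and ranks given beside all genes therefore describe these genes and do not test them. The transcript rows of each gene were summed per gene ID. All 10 were found among 58174 gene IDs, and all 10 averaged at least 1 CPM (counts scaled to the library size after TMM scaling between columns) over the table. RNA was sequenced from MDA-MB-231, an established human line of triple-negative breast cancer cells, in groups labelled KO1 and KO2, both with the genotype ARID1A knockout, and NC, labelled control. ARID1A is a subunit of BAF, a SWI/SNF remodeller, and contacts DNA. No group carries a treatment or time label, and the labels give neither the knockout lesion nor whether KO1 and KO2 are clones or pools. The labels list 2 samples per group, while the table holds 1 column of estimated counts per group with no replicate number. No spread between cultures can therefore be given for any value, and every bracketed 95% interval covers counting error only (exact Clopper-Pearson). Fragments were counted without molecular identifiers and are not independent molecules.

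Polycomb repressive complex 2 (PRC2) methylates lysine 27 of histone H3. EZH2 or its paralog EZH1 is the catalytic subunit, SUZ12 is the scaffold, EED reads the finished mark and stimulates the enzyme, and JARID2 is an accessory subunit that helps recruit the complex and stimulates it. Polycomb repressive complex 1 (PRC1) ubiquitinates histone H2A through RING1 or RNF2, which pair with a PCGF protein such as BMI1. In the canonical form a CBX protein such as CBX2 binds the PRC2 mark. BEND3 is a BEN domain protein that binds DNA, associates with pericentromeric heterochromatin and helps repress transcription. BAF opposes Polycomb in many cell types.

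Total counts were 25801499 in KO1, 26144758 in KO2 and 26798753 in NC, and genes of the mitochondrial genome took 20.5%, 16.9% and 12.8% of them. ARID1A itself was at 45.7 CPM in KO1, 83.9 CPM in KO2 and 77.3 CPM in NC. Its fold over NC was 0.591 in KO1 (0.549 to 0.637) and 1.09 in KO2 (1.02 to 1.15). Neither passed the size rule given below. Since the lesion is not given, these RNA values do not settle whether the knockout took effect in either column. The protein was not analysed here. The line's 4 mesenchymal markers summed to 7002, 4907 and 5960 CPM in KO1, KO2 and NC, with VIM at 4719, 2925 and 3411 CPM and FN1, lower in KO1, at 109, 227 and 279 CPM. The 5 epithelial markers summed to 1354, 1097 and 655 CPM. Among them KRT19, at 329, 314 and 71.97 CPM, and EPCAM, at 20.3, 15.4 and 6.46 CPM, passed as higher in both knockout columns by the size rule given below, and KRT18, at 357, 207 and 141 CPM, in KO1. The part of these marker differences in the results that follow was not tested. The 3 hormone receptor markers summed to 28.0, 52.9 and 75.7 CPM in KO1, KO2 and NC. Of these PGR had 0 counts in every column, and ESR1 had 0 counts in KO1 and NC and 14 in KO2. ERBB2, the only one of them that averaged at least 1 CPM, was lower in KO1 by the same rule. Its log2 fold was -1.43 in KO1 and -0.53 in KO2. The leukocyte markers summed to 1.83, 6.75 and 6.04 CPM and the endothelial markers to 3.35, 7.82 and 4.50 CPM. The defining genes PTPRC and CD3E had 0, 4 and 0 counts, and VWF had 0, 0 and 4. By the same rule CD14, at 30, 160 and 163 counts, and PECAM1, at 14, 166 and 94, were lower in KO1, and KDR, at 61, 47 and 22, was higher in both knockout columns. PECAM1 in KO1 and KDR in NC lay below 1 CPM. Each reached the rule's mean of 1 CPM only through its other columns, which favoured these calls.

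The RNA of CBX2 was lower in both knockout columns, and that of BEND3 and EED was lower in KO1 alone by the rule used here. JARID2 was higher in KO1. For the other 6 genes, EZH1, EZH2, SUZ12, BMI1, RING1 and RNF2, neither knockout column passed that rule. The size rule asked for a mean of at least 1 CPM, an interval without equality, and a log2 fold (2 counts added as a prior) of 1 or more in either direction. In KO1 against NC 3 of the 10 genes passed as lower, where 17.4% of 14524 genes did, and 1 as higher, where 15.4% did. In all 4 of 10 passed there, where 32.8% of genes did. In KO2 against NC 1 passed as lower, where 9.98% of genes did, and 0 as higher, where 11.0% did, which makes 1 of 10 beside 21.0% in either direction. In KO2 against KO1 3 passed as higher (BEND3, EED and CBX2), where 14.9% of genes did, and 1 as lower (JARID2), where 11.2% did, or 4 of 10 beside 26.1%. As higher in both knockout columns 0 of 10 passed, where 6.22% of genes did. The comparisons with NC share that column. The median log2 fold of the 10 genes was -0.12 in KO1 and -0.24 in KO2, beside -0.01 and 0.00 over all genes. Shares and medians near those over all genes say nothing particular of the 10, so what follows concerns single genes and not the group as a whole.

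**Figure D1:**
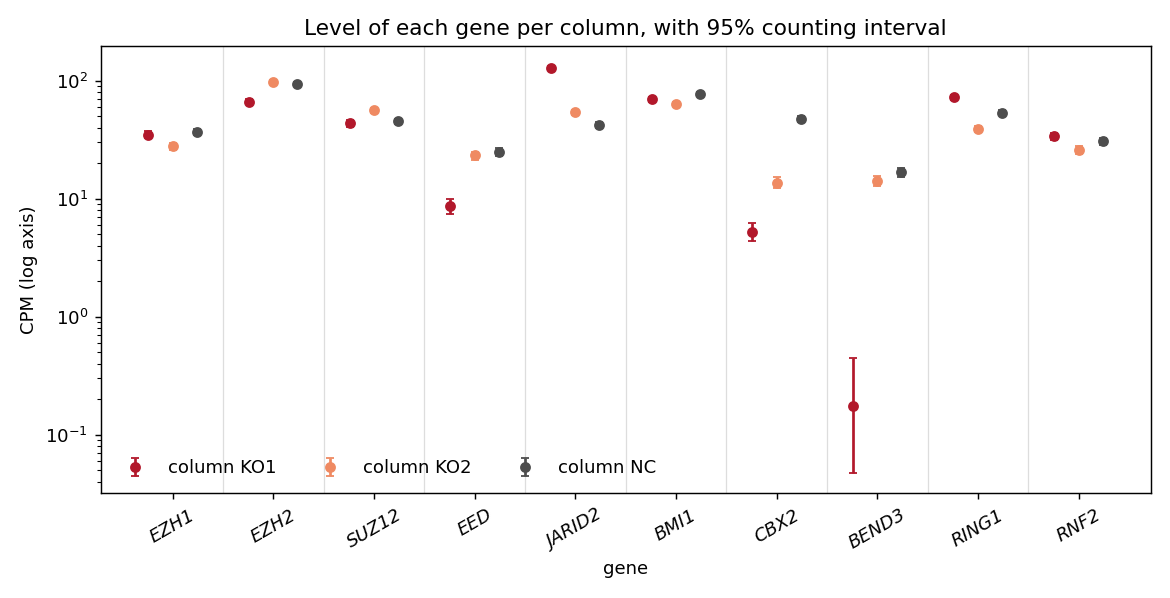
CPM of each gene (log axis) in the columns KO1, KO2 and NC, with 95% counting intervals as bars and 1 point per column. BEND3 in KO1 is at 0.174 CPM, against 14.2 CPM in KO2 and 16.7 CPM in NC, and CBX2 is at 5.26, 13.7 and 47.4 CPM.

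Promoter sequences are shown for JARID2 and BEND3, because a transcript from the downstream promoter held part of the JARID2 counts in KO2 and all BEND3 counts in KO2 and NC, and for EZH2, whose window holds the most motif matches of the 13 searched. They are the 250 bases before the start in RefSeq's table (build GRCh38.p14), 5′ to 3′ on the gene's strand, in lower case. Capitals mark CCAAT boxes and, in the downstream JARID2 promoter, the cAMP response element TGACGTCA. Lines without capitals hold none of the motifs searched.
JARID2 upstream promoter, chr6:15245819-15246068 (+): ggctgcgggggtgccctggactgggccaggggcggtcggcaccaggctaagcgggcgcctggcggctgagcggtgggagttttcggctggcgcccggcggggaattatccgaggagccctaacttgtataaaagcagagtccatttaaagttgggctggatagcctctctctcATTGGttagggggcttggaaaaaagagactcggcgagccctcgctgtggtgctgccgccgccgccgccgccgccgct
JARID2 downstream promoter, chr6:15248605-15248854 (+): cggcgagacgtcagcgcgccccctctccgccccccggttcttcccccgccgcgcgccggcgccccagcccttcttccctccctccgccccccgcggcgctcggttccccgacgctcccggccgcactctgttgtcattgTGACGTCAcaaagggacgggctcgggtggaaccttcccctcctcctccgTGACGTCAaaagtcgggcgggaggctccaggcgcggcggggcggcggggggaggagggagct
BEND3 upstream promoter, chr6:107115516-107115765 (-): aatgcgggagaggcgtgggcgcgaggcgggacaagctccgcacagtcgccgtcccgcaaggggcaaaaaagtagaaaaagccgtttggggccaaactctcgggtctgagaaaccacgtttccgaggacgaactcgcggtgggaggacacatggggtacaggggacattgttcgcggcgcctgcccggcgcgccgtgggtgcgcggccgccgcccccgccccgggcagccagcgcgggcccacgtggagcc
BEND3 downstream promoter, chr6:107114433-107114682 (-): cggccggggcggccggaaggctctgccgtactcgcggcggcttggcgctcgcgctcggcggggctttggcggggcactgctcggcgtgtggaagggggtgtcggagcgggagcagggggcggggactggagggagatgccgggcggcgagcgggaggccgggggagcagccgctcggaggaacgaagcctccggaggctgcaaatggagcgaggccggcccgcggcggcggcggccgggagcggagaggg
EZH2 promoter, chr7:148884292-148884541 (-): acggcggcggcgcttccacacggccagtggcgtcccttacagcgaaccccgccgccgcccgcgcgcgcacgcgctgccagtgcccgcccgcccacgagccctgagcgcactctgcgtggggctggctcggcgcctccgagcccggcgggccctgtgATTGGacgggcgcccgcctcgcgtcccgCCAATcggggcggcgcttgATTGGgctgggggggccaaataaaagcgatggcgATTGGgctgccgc

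EZH2, the main methyltransferase of dividing cells (chromosome 7, 148807383 to 148884321, hg38), was at 66.5 CPM in KO1, 98.4 CPM in KO2 and 93.2 CPM in NC. It was 1.40-fold lower in KO1 than in NC (1.31 to 1.49) and 1.06-fold higher in KO2 (1.0 to 1.11), and neither difference reached 2-fold. EZH1, the paralog that prevails in resting cells (chromosome 17, 42700275 to 42745049), was at 35.0 CPM in KO1, 27.8 CPM in KO2 and 36.9 CPM in NC. The KO1 and NC values of EZH1 could not be told apart within counting error, with a fold of 0.948 (0.864 to 1.04), while KO2 was 1.33-fold lower than NC (1.21 to 1.46). Per length, in the deposited TPM (a level per transcript length), EZH2 made up 69.3% of the summed EZH1 and EZH2 level in KO1, 77.0% in KO2 and 72.0% in NC. EZH2 was therefore the more abundant catalytic subunit RNA in every column.

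SUZ12 (chromosome 17, 31937018 to 32001045) was at 43.6 CPM in KO1, 56.2 CPM in KO2 and 45.3 CPM in NC. KO2 was the highest column for SUZ12, 1.24-fold above NC (1.15 to 1.34), and KO1 matched NC within counting error, at 0.965-fold (0.887 to 1.05). The pseudogene SUZ12P1 was at 7.22, 9.60 and 6.18 CPM in KO1, KO2 and NC, and fragments of the near-identical copies may have been divided between them. EED (chromosome 11, 86244544 to 86278813) was at 8.61 CPM in KO1, 23.3 CPM in KO2 and 24.9 CPM in NC. Only KO1 lay apart, 2.89-fold lower than NC (2.46 to 3.40), whereas KO2 lay within counting error of NC (0.936-fold, 0.840 to 1.04). On the TPM scale, summed over all transcripts and so with weight on short retained-intron ones, EED made up 10.8% of the summed EZH2, SUZ12 and EED level in KO1, 21.1% in KO2 and 23.7% in NC, and SUZ12 made up 26.6%, 22.2% and 18.4%. The share of EED was lowest in KO1.

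JARID2 (chromosome 6, 15246296 to 15522040) was at 128 CPM in KO1, 54.1 CPM in KO2 and 42.1 CPM in NC. It was 3.05-fold higher in KO1 than in NC (2.85 to 3.26), and 1.29-fold higher in KO2 (1.19 to 1.39). Of 4606 genes with at least as many counts in NC, 99, JARID2 among them, had a log2 fold as high in KO1. Over all 14524 genes JARID2 stood at rank 1042 from the highest in KO1. Its log2 fold of 1.60 there lay below the 95th percentile of all genes, 1.92. KO2 was 2.37-fold lower than KO1 for JARID2 (2.23 to 2.52), so the columns of the same genotype label differed more from each other than KO2 did from NC. With total-count scaling and with TPM that difference between KO2 and KO1 dropped below 2-fold.

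Among the PRC1 genes, CBX2 stood apart. CBX2 (chromosome 17, 79778132 to 79787983), whose protein binds the PRC2 mark and compacts chromatin, was at 5.26 CPM in KO1, 13.7 CPM in KO2 and 47.4 CPM in NC. It was 9.0-fold lower in KO1 (7.47 to 10.9) and 3.45-fold lower in KO2 (3.08 to 3.88), the log2 folds with the prior count being -3.15 and -1.78. CBX2 was the only gene of the 10 that passed as lower in both knockout columns, where 5.65% of all genes did. Of 4191 genes with at least the counts of CBX2 in NC, 46 had a log2 fold as low in KO1 and 78 in KO2, CBX2 included.

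RING1 and RNF2, the paired ubiquitin ligases, stayed within 2-fold of NC. RING1 (chromosome 6, 33208495 to 33212722) was at 72.2 CPM in KO1, 39.0 CPM in KO2 and 53.6 CPM in NC. KO1 lay 1.35-fold above NC (1.25 to 1.44) and KO2 1.38-fold below it (1.27 to 1.49). RNF2 (chromosome 1, 185045364 to 185102608) was at 33.8 CPM in KO1, 25.96 CPM in KO2 and 30.8 CPM in NC, and its KO1 fold of 1.10 included equality (0.995 to 1.21). The KO1 direction of RNF2 turned with total-count scaling (log2 fold -0.09) and with TPM (-0.13). In TPM, RING1 made up 79.7% of the RING1 and RNF2 sum in KO1, 74.5% in KO2 and 77.6% in NC.

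BMI1 (chromosome 10, 22321211 to 22331484), the PCGF protein known for silencing the INK4a locus, was at 69.9 CPM in KO1, 63.7 CPM in KO2 and 77.8 CPM in NC. KO1 was 1.11-fold lower than NC (1.04 to 1.19) and KO2 1.22-fold (1.15 to 1.30). The read-through gene COMMD3-BMI1, which overlaps it, had 0 counts in KO1, 82 in KO2 and 165 in NC. On the TPM scale BMI1 passed as lower in KO1, with a log2 fold of -1.04. That scale gives a short retained-intron transcript, BMI1-206, more weight, and its counts were 7 in KO1, 222 in KO2 and 199 in NC. The main coding transcript BMI1-201 was at 24.7, 26.1 and 31.8 TPM in KO1, KO2 and NC.

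BEND3 (chromosome 6, 107065182 to 107115269) had 4 counts in KO1, 398 in KO2 and 468 in NC, or 0.174, 14.2 and 16.7 CPM. KO1 lay 96.1-fold below NC (37.3 to 354). BEND3 reached a mean of 1 CPM through KO2 and NC and not through KO1. With the prior count the log2 fold was -6.07, and BEND3 stood at rank 34 from the lowest among 14524 genes. Of 8062 genes with at least as many counts in NC, 16 had a log2 fold as low in KO1, BEND3 included. In KO2 the gene was 1.18-fold lower than in NC (1.03 to 1.35). KO2 was 81.7-fold higher than KO1 (31.7 to 301), rank 12 from the highest of all genes in that comparison, so the near-absence of BEND3 RNA separated KO1 from the other knockout column as well as from the control. The pseudogenes BEND3P1 and BEND3P2 had 0 counts in every column, and BEND3P3 had 0, 0 and 11.

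**Figure D2:**
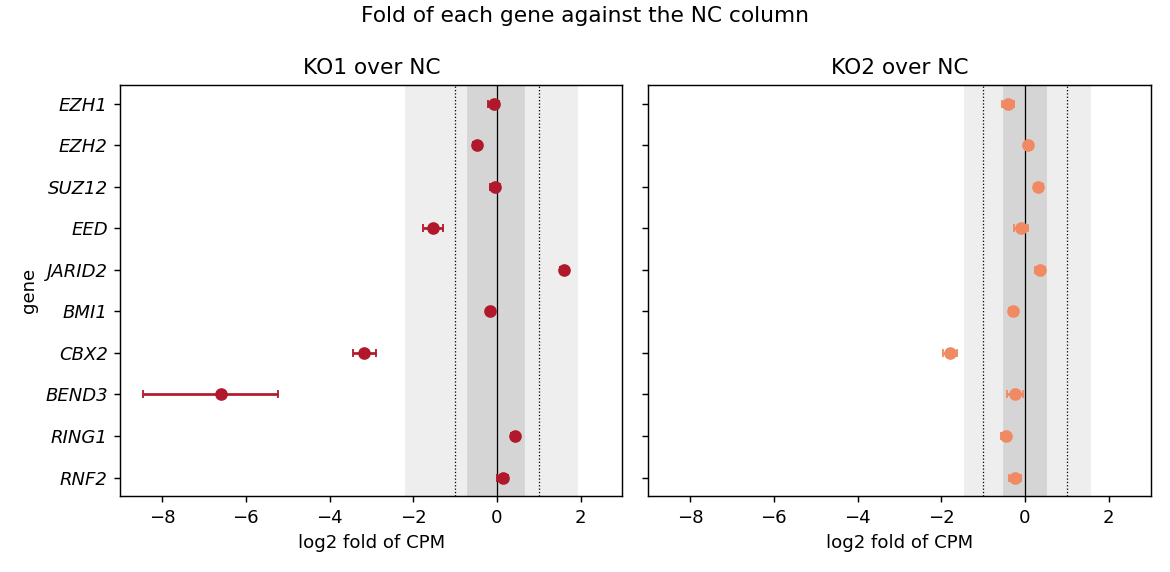
Log2 of the CPM ratio, without a prior count, of KO1 over NC (left) and KO2 over NC (right) for each gene, with 95% counting intervals. Dark and light bands hold the 25th to 75th and the 5th to 95th percentile of log2 folds with prior count over 14524 genes, and dotted lines mark a log2 fold of 1 in size. In KO1 the genes BEND3 and CBX2 lie left of the light band, and in KO2 CBX2 does.

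The only test between genotypes that the table allows set both knockout columns, as 2 samples of 1 genotype label, against NC (edgeR quasi-likelihood F test, two-sided, Benjamini-Hochberg adjustment). It has 1 residual degree of freedom and assumes that the lone NC column varies like the knockout columns. It called 27 of 18289 genes (0.148%), 0.0547% as higher and 0.0930% as lower, and 0 of the 10 described here. The nearest was CBX2, with an estimated log2 fold of -2.32, lower in both of 2 knockout columns, an unadjusted p of 0.00802 and an adjusted p of 0.314 (edgeR), which ranged from 0.0516 to 0.365 over the settings tried. At an unadjusted edgeR p under 0.05 CBX2 was the only one of the 10, where 7.70% of all genes passed. DESeq2 also called 0 of 10, beside 306 genes in all. CBX2 was again the only one of the 10 at an unadjusted DESeq2 p under 0.05. There 2.41% of 58174 gene IDs passed, IDs without counts included. The adjusted p was 0.854 for JARID2, 0.970 for EED and 0.982 for BEND3 (edgeR), genes for which KO1 and KO2 differed from each other by more than 2-fold. A miss in this test does not show that a gene was alike between genotypes.

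The transcript rows show where the summed counts come from. EZH1-201 carried 0 of 804 EZH1 counts in KO1, 515 of 778 in KO2 and 634 of 1032 in NC, while EZH1-202 carried 732, 67 and 140. EZH1-202 thus held 91.0% of EZH1 counts in KO1 (88.9 to 92.9%), 8.61% in KO2 (6.74 to 10.8%) and 13.6% in NC (11.5 to 15.8%). The transcripts EZH1-201 and EZH1-202 share 4596 exonic bases, and only 12 and 27 bases are their own in GENCODE 29. The sum over the gene therefore rests on far more sequence than the split. Of 6427 transcripts with at least 500 counts in both KO2 and NC, 254 had at most 1 in KO1, EZH1-201 among them. The like count was 45 of 5472 for KO2 and 43 of 5478 for NC, so such absences were most frequent in KO1. Transcripts above 0 counts numbered 82849 in KO1, 95662 in KO2 and 93976 in NC.

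JARID2-202 had 0 counts in KO1, 554 in KO2 and 1 in NC, which is 36.6% of JARID2 counts in KO2 (34.1 to 39.0%). The transcript JARID2-201 held 2942, 961 and 1175 counts in KO1, KO2 and NC. JARID2-202 starts 2559 bases downstream of JARID2-201, at the first base after the downstream JARID2 promoter printed above, and has 129 exonic bases that JARID2-201 lacks. The promoter of JARID2-202 holds TGACGTCA at positions -111 to -104 and -62 to -55 before that start, and the upstream one holds a CCAAT box on the other strand at -77 to -73. For JARID2-201 alone the levels were 128, 34.3 and 41.97 CPM in KO1, KO2 and NC, so that in KO2 this transcript lay below NC while the gene lay above it. The split between JARID2-201 and JARID2-202 is estimated, since they share 5466 exonic bases, and the sum over the gene rests on more sequence. JARID2-202 was not alone in this pattern, since 148 of 8332 transcripts with at least 500 counts in KO2 had at most 1 in each other column. The like count was 59 of 7234 for KO1 and 158 of 8599 for NC.

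All 398 BEND3 counts in KO2 and all 468 in NC were assigned to BEND3-202, whose 5′ end is the first base after the downstream BEND3 promoter. The 4 counts in KO1 were assigned to BEND3-201, which starts 837 bases upstream, and that transcript had 0 counts in KO2 and NC. BEND3-201 and BEND3-202 share 6015 exonic bases, so this split is an estimate too. With 4 counts in KO1 it does not show a change of promoter. Neither BEND3 promoter holds a match to the motifs searched. They hold 37 CpG dinucleotides (downstream) and 32 (upstream) in 250 bases.

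For EZH2 the largest share went to EZH2-209, annotated as a target of nonsense-mediated decay, with 502 counts in KO1, 1457 in KO2 and 1172 in NC. Its share of EZH2 counts was 32.8% in KO1 (30.5 to 35.2%), 52.9% in KO2 (51.0 to 54.7%) and 44.9% in NC (43.0 to 46.8%). Among coding EZH2 transcripts, EZH2-203 had 428, 59 and 630 counts in KO1, KO2 and NC, and EZH2-201 had 56, 534 and 161. The columns therefore agreed on the level of EZH2 more closely than on its transcripts, and EZH2-203 lies wholly within the exons of EZH2-201, which adds 48 bases. With coding transcripts alone the KO2 direction of EZH2 turned, to a log2 fold of -0.09. For SUZ12, SUZ12-201 held 53.5% of counts in KO1 (50.3 to 56.6%), 75.3% in KO2 (73.1 to 77.5%) and 47.8% in NC (45.0 to 50.5%), and SUZ12-204 lies wholly within its exons.

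Transcripts of EED without a coding label, mostly with retained introns, held 58.1% of EED counts in KO1 (50.9 to 65.0%), 42.9% in KO2 (39.1 to 46.8%) and 44.5% in NC (40.8 to 48.3%). Coding EED transcripts summed to 83 counts in KO1, 372 in KO2 and 386 in NC, so KO1 was lower for EED in the coding part as well. For EZH1 the non-coding share was 8.96% in KO1, 18.4% in KO2 and 20.5% in NC, and for BMI1 1.68%, 14.2% and 10.9%. The median of that share over 9870 genes was 6.87%, 7.27% and 6.66% in KO1, KO2 and NC. The leading transcript of KO1 differed from that of NC for EZH1, SUZ12 and BEND3, 3 of the 10 genes. Among the 9 with at least 20 counts in every column, which leaves out BEND3, it was 2, where 28.2% of 11900 such genes with several transcripts differed. KO2 and NC differed in leading transcript for SUZ12 alone, where 24.0% of genes did, and KO2 and KO1, among the same 9 genes, for EZH1 alone, where 28.0% did.

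**Figure D3:**
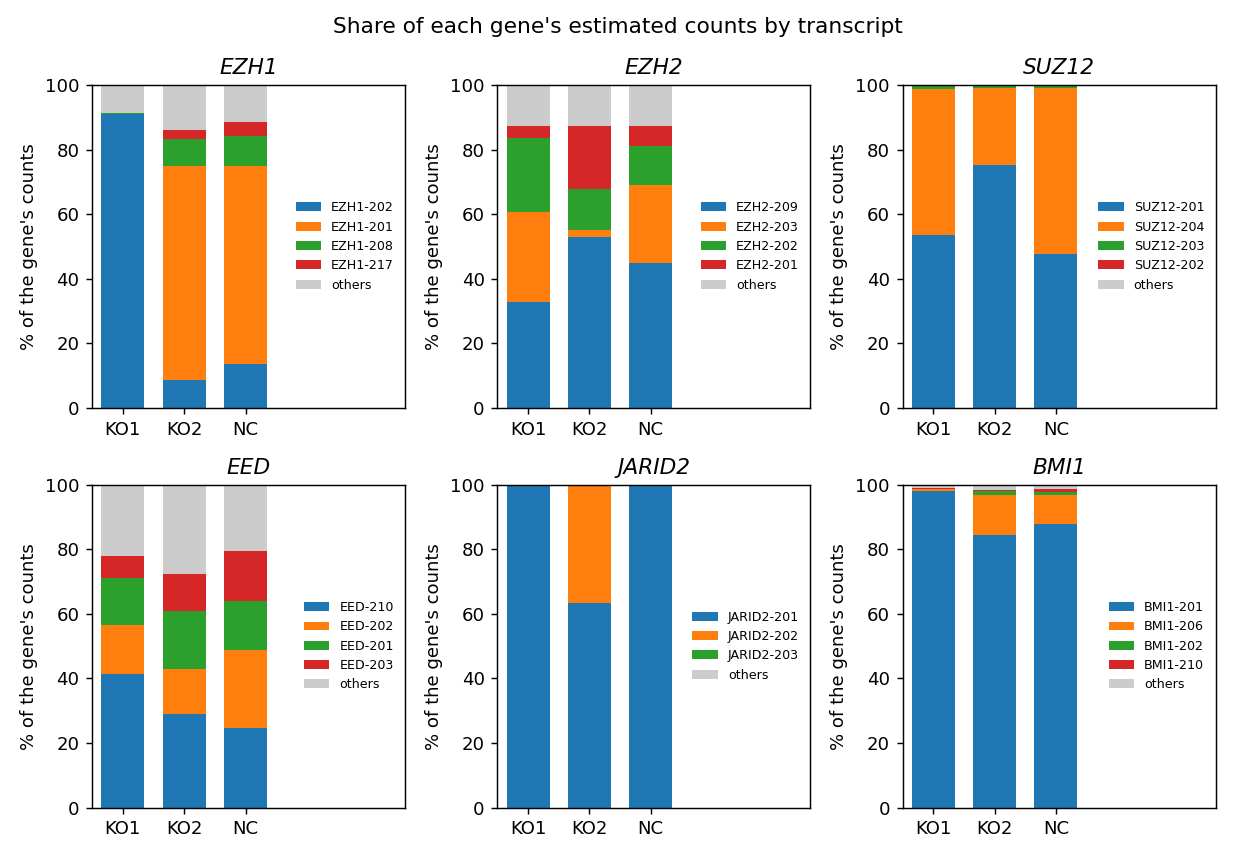
Share of each gene's estimated counts (percent, from 0) by transcript in the columns KO1, KO2 and NC, for 6 of the 10 genes. Colours are the 4 transcripts with the highest share and grey is the rest. EZH1-202 holds 91.0% in KO1, and JARID2-202 holds 36.6% in KO2, with 0 counts in KO1 and 1 in NC.

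Among promoters, 9 of the 10 genes had an entry, with 13 windows of 250 bases in all. CCAAT, searched on both strands, lay in 4 of these windows, those of JARID2 (upstream), EZH2, EED and SUZ12, where 32.0% of 35116 promoters hold it. The EZH2 window holds it 4 times, as seen in the sequence above. The E2F words TTTCCCGC, TTTGGCGC, TTTCGCGC and TTTGCCGC, on both strands, lay in 2 windows, those of SUZ12 (-189 to -182) and EZH1 (-115 to -108), where 2.79% of promoters hold one. TGACGTCA, which reads the same on both strands, lay in the downstream JARID2 promoter alone, where 1.65% of promoters hold it. A match is a description of these letters and not evidence of binding.

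The other subunits of PRC2 were lower in KO1 in 4 of 9 measured genes, where 17.4% of all genes were, and in KO2 in 0 of 9, where 9.98% were. As higher 0 of 9 passed in KO1 and 0 in KO2, beside 15.4% and 11.0% of all genes. MTF2, a Polycomb-like protein that recruits PRC2 to CpG islands, was at 6.26 CPM in KO1, 18.0 CPM in KO2 and 24.5 CPM in NC. The histone chaperone subunit RBBP7 was at 60.9, 117 and 150 CPM, and the accessory subunit AEBP2 at 12.2, 35.8 and 29.5 CPM. The remaining lower gene, PHF19, named after its values were seen, was at 89.9, 154 and 197 CPM. KO1 was the lowest column for all 4 genes. The median log2 fold of the list was -0.87 in KO1 and 0.28 in KO2.

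The other canonical PRC1 subunits had 3 of 10 genes lower and 1 higher in KO1, beside 17.4% and 15.4% of all genes, and 0 and 0 in KO2, beside 9.98% and 11.0%. These counts are near the shares over all genes. PHC2, a polyhomeotic protein that polymerises PRC1, was at 571 CPM in KO1, 298 CPM in KO2 and 200 CPM in NC. The chromodomain genes CBX7, at 4.78, 9.46 and 12.4 CPM, and CBX6, at 45.3, 63.1 and 97.7 CPM, were lower in KO1, and so was SCML2, at 5.22, 7.32 and 12.6 CPM.

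Subunits of variant PRC1, which works without CBX proteins, had 2 of 22 genes higher and 2 lower in KO1, beside 15.4% and 17.4% of all genes, and 0 and 0 in KO2, beside 11.0% and 9.98%. CSNK2B, the regulatory subunit of casein kinase 2, was at 227, 95.6 and 79.1 CPM in KO1, KO2 and NC, and YAF2 at 30.5, 15.8 and 13.0 CPM. KDM2B, which brings variant PRC1 to CpG islands, was at 13.7, 23.4 and 36.7 CPM, and TFDP1, the E2F partner, at 108, 169 and 285 CPM. Of 18 enzymes and partners that oppose Polycomb, 3 were higher and 3 lower in KO1, near the 15.4% and 17.4% of all genes, and 3 higher and 1 lower in KO2, beside 11.0% and 9.98%. KMT2A, an H3 lysine 4 methyltransferase, was at 28.5, 25.6 and 11.4 CPM and NSD1, an H3 lysine 36 methyltransferase, at 36.3, 63.7 and 16.3 CPM, higher in both knockout columns. NSD2, its paralog, was lower in both, at 61.6, 84.4 and 239 CPM. The H3 lysine 27 demethylase KDM6B was at 36.6, 15.6 and 15.3 CPM and higher in KO1, where KMT2C, at 17.7, 57.2 and 54.0 CPM, and ASXL1, at 133, 182 and 325 CPM, were lower. ASXL2, a cofactor of the H2A deubiquitinase BAP1, was at 4.78, 65.7 and 3.57 CPM, high in KO2 alone.

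Heterochromatin and H3 lysine 9 factors were lower in KO1 in 5 of 22 genes, with 0 higher, beside 17.4% and 15.4% of all genes. In KO2 1 was higher and 0 lower, beside 11.0% and 9.98%. HELLS, a remodeller that aids DNA methylation, was at 21.9, 58.5 and 86.5 CPM in KO1, KO2 and NC, EHMT2, the H3 lysine 9 methyltransferase G9a, at 24.2, 68.6 and 65.9 CPM, and MPHOSPH8, a HUSH subunit, at 11.1, 27.7 and 30.4 CPM. KMT5C, which methylates lysine 20 of H4, was the gene higher in KO2, at 9.35, 16.4 and 7.14 CPM. Of 14 NuRD and NoRC genes, partners in repression that BEND3 is known to work with, 5 were lower and 0 higher in KO1, beside 17.4% and 15.4% of all genes, and 1 lower in KO2, beside 9.98%. CDK2AP1 was lower in both, at 14.0, 24.0 and 64.1 CPM, and the remodellers BAZ2A, at 41.6, 98.9 and 133 CPM, CHD3, at 42.8, 120 and 130 CPM, and CHD4, at 78.8, 159 and 220 CPM, were lower in KO1. Of 4 measured relatives with a BEN domain 1, BEND6, was higher in both columns, at 5.17, 5.93 and 1.43 CPM, where 6.22% of all genes were.

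The KO1 column was also low for G1 to S genes, many of them E2F targets, where 22 of 30 were lower and 0 higher, beside 17.4% and 15.4% of all genes. In KO2 0 were lower and 2 higher, beside 9.98% and 11.0% (KO1 and KO2 median log2 folds -1.53 and -0.32). PCNA, the replication clamp, was at 37.5, 223 and 258 CPM in KO1, KO2 and NC, E2F2 at 0.739, 8.39 and 15.7 CPM, and CCNE2 at 1.09, 18.0 and 12.6 CPM. E2F2 reached a mean of 1 CPM through KO2 and NC and not through KO1. POLA1, at 22.7, 65.3 and 26.97 CPM, and CLSPN, at 3.74, 41.0 and 18.4 CPM, were higher in KO2, and CLSPN was lower in KO1. The heterochromatin list as a whole had a median log2 fold of -0.17 in KO1. The part of G1 to S genes in the lower KO1 values of EED and of the single PRC2 and heterochromatin genes named above was not tested.

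**Figure D4:**
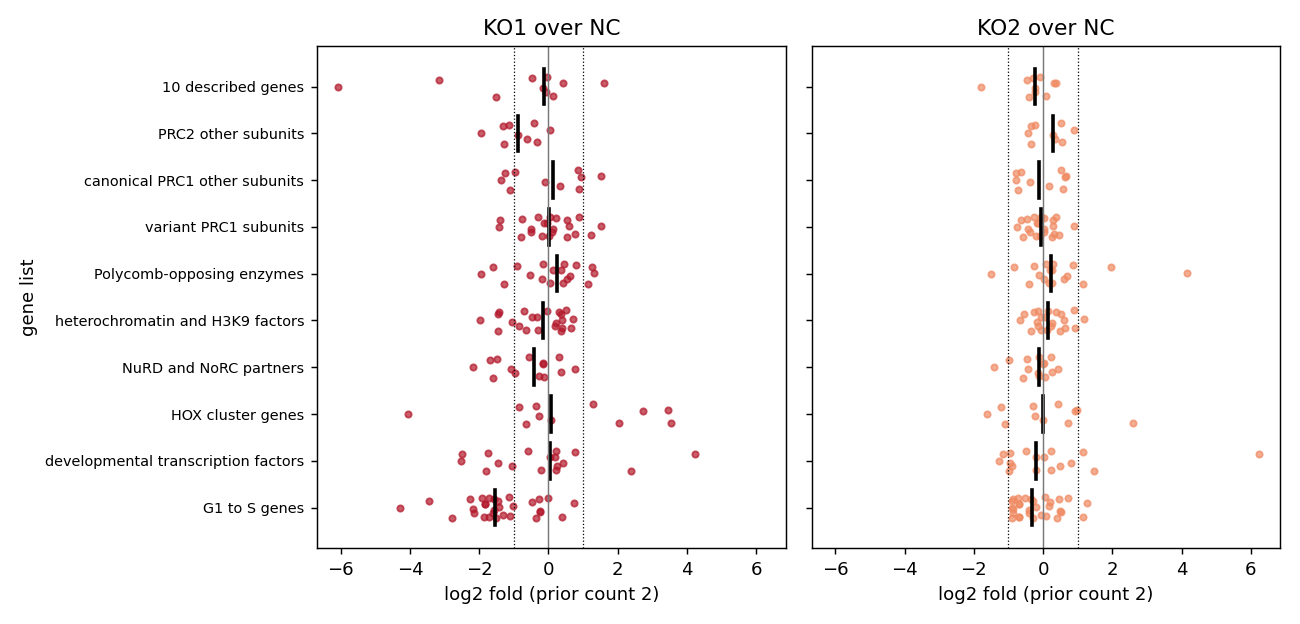
Log2 fold (prior count 2) of KO1 over NC (left) and KO2 over NC (right) for each measured gene of 10 lists, with the list's median as a black bar, the median of all genes as a grey line, and dotted lines at a log2 fold of 1 in size. The median of PRC2 subunits is -0.87 in KO1 and 0.28 in KO2, and that of G1 to S genes -1.53 and -0.32.

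HOX genes are classic Polycomb targets. Of 39 genes 17 had 0 counts in every column and 11 averaged at least 1 CPM. Of those 11, 5 were higher and 1 lower in KO1, where 15.4% and 17.4% of all genes passed, and 1 was higher and 3 lower in KO2, where 11.0% and 9.98% did. HOXB9 was at 148 CPM in KO1, 29.6 CPM in KO2 and 36.1 CPM in NC, HOXB7 at 14.7, 1.75 and 1.29 CPM, and HOXB8 at 8.48, 2.36 and 1.21 CPM. These neighbours in the HOXB cluster passed the size rule in KO1 and not in KO2. HOXD1 was higher in both knockout columns, at 20.1, 10.4 and 1.64 CPM. The fifth gene higher in KO1 was HOXD3, named after its values were seen, at 9.39, 7.57 and 3.79 CPM. The genes lower in KO2 were HOXB3, at 7.43, 3.78 and 11.8 CPM, HOXB4, at 2.0, 1.0 and 2.43 CPM, and HOXC5, at 2.39, 1.96 and 4.32 CPM. HOXA13, the gene lower in KO1, had 0, 56 and 33 counts in KO1, KO2 and NC, and passed the level filter only through KO2 and NC. HOX genes overlap each other and antisense transcripts, and the strand setting of the counting is not given in the sources used here, so the division of their counts is uncertain.

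Of 72 developmental transcription factors of families that Polycomb marks in embryonic stem cells, 38 had 0 counts in every column and 17 averaged at least 1 CPM. Of those 17, 2 were higher and 6 lower in KO1, beside 15.4% and 17.4% of all genes, and 3 higher and 2 lower in KO2, beside 11.0% and 9.98%. SOX21 was at 1.35 CPM in KO1 and 5.68 CPM in KO2, and had 0 counts in NC. TBX15 was at 1.83, 0.928 and 0.286 CPM in KO1, KO2 and NC. Both SOX21 and TBX15 lay below 1 CPM in NC and passed the level filter only through the knockout columns. The filter thus favoured a call as higher for them. LHX4, higher in KO2, was at 1.83, 6.25 and 2.79 CPM. GATA2 was lower in both, at 10.6, 14.9 and 36.0 CPM, as was NKX3-2, at 2.61, 3.21 and 7.32 CPM. LHX6, at 0.565, 1.93 and 3.64 CPM, WT1, at 0.696, 5.0 and 4.25 CPM, and SIX2, at 3.83, 7.0 and 13.6 CPM, were lower in KO1. LHX6 and WT1 lay below 1 CPM in KO1 and passed the level filter only through KO2 and NC. The filter thus favoured a call as lower for LHX6 and WT1. The list thus held genes on both sides in each column, and its median log2 fold was 0.06 in KO1 and -0.21 in KO2.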

How the data were processed

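The authors deposited 1 table with estimated counts, TPM and FPKM for 199167 transcripts, per the file headers; the 3 FPKM columns were not used here. Per the submitters' processing notes, CASAVA, Bowtie2, featureCounts and hg38 were used. Their roles and versions, the tool that estimated transcript values and whether a column is 1 library or several combined are not given in the sources used here. The deposited counts are whole numbers and were treated as estimates. The deposited TPM are per transcript length. Columns were matched to groups by name.

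Counts were summed per gene ID. Symbols came from a table of current names (57392 of 58174 IDs), and transcript types and exons from GENCODE release 29, which is on the same build. CPM used TMM scaling on genes kept by filterByExpr (edgeR 4.0.16, R 4.3.3). Single columns were compared by the size rule, which gives no p-value. The edgeR quasi-likelihood test (robust) was fitted over all genes and was tested on simulated data, as was the interval. DESeq2 1.42.0 was an alternative. Leading transcripts were compared where every column had at least 20 counts.

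The 10 genes and the lists were chosen with earlier results of these data known. Genes named beyond the 10 were up to 4 per list and direction that passed in both knockout columns, up to 3 that passed in only 1 of them, and markers, unless stated otherwise; some of these are not reported here.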

Additional observations from a re-analysis of the deposited data

How the results depend on the processing

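No paired analysis was possible because the table's columns carry no replicate number, and no column could be left out of the test without leaving 1 column against 1. The calls of the 10 genes by the size rule were the same under 8 or 9 alternatives, except that BMI1 passed as lower in KO1 on the TPM scale, JARID2 did not pass between KO2 and KO1 with total-count scaling (log2 fold -0.98) or TPM (-0.81), and RING1 passed there at a 1.5-fold threshold. The log2 fold of BEND3 in KO1 ranged from -6.44 to -4.98, that of CBX2 from -3.58 to -3.15 in KO1 and from -1.81 to -1.75 in KO2, and that of EED in KO1 from -2.07 to -1.52. Directions that turned were those of RNF2 and EZH1 in KO1, of EZH2 in KO2, and of EZH1 and BMI1 between KO2 and KO1, each below the threshold. None of the 10 genes was called by edgeR or DESeq2 in any setting.

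Over all genes, TPM gave 1344 genes higher in KO1, and in KO2 against KO1 3679 higher and 792 lower; total-count scaling gave 1056 lower there. The median log2 fold of KO1 over NC shifted by -0.23 with total counts and -0.37 with TPM, and the share of higher calls was 33.3% and 26.4%, against 46.9%. For KO2 over KO1 the shift was 0.26 and 0.42, with 74.8% and 82.3% of calls higher against 57.1%. Without the filter 3487 genes were higher in KO1, 2751 higher and 2413 lower in KO2, and 2588 lower in KO2 against KO1. At 1.5-fold these counts were 3817 higher and 4071 lower in KO1, 3214 and 3051 in KO2, and 3772 and 3184 between them, a wider rule by construction. The edgeR test called 14 genes with RLE scaling, 15 without mitochondrial genes, 48 without robust fitting, which was chosen after seeing the data, and 493 without a filter, and DESeq2 called 306. Except for the wider rule, the cause was not tested. Depth limits BEND3 in KO1 most, where 4 counts set the fold.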

Other observations

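The neighbourhood of the 2 genes with the lowest folds was described from the 5 measured genes on each side. The region around BEND3 ran from CRYBG1 to AFG1L on chromosome 6 (106360808 to 108526796, hg38). There 0 of 10 neighbours were lower in KO1 and 1 was higher, beside 17.4% and 15.4% of all genes. Their log2 folds ran from -0.93 to 1.29, with a median of 0.06. MTRES1, the nearest on one side, was at 8.96 CPM in KO1, 9.35 CPM in KO2 and 7.0 CPM in NC, and PDSS2, the nearest on the other, at 7.30, 12.2 and 14.0 CPM. The near-absence of BEND3 RNA in KO1 was thus not shared by the genes beside it.

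The region around CBX2 ran from TIMP2 to GAA on chromosome 17 (78852977 to 80119879). There 0 of 10 neighbours were lower and 1 higher in KO1, beside 17.4% and 15.4% of all genes. In KO2 1 was lower and 1 higher, beside 9.98% and 11.0%. The neighbour higher in each column was CCDC40, and the median log2 folds were -0.40 in KO1 and -0.35 in KO2. Counts so near the shares over all genes say nothing particular of either region. CBX8, the Polycomb paralog next to it, was at 12.0 CPM in KO1, 14.2 CPM in KO2 and 23.4 CPM in NC, with a log2 fold of -0.96 for KO1 and -0.71 for KO2, neither of which passed the rule. Among the other 8 genes, 5 of 10 neighbours of BMI1 and 4 of 10 neighbours of EZH1 were lower in KO1, beside 17.4% of all genes. The neighbours of BMI1 include the read-through COMMD3-BMI1. The median log2 folds were -0.78 around BMI1 and -0.54 around EZH1, while BMI1 itself was at -0.15 and EZH1 at -0.08.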
